A study of Mus musculus with 20 samples.

Results

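Deletion of Pcbp2 in unstimulated T effector cells was studied in RNA sequencing libraries, 6 from deleted cells (CKO) and 6 from control cells (CTL), which are 12 of the 20 in the series. The genes compared were the 13530, of 49315 in the count table, whose mean level over these 12 libraries was at least 1 CPM (counts scaled to a common library size). The cells were mouse splenic CD4+CD25- T cells, flow sorted and not stimulated (0 h). CTL cells carried the floxed allele alone (Fl-Pcbp2) and CKO cells carried it with CD4cre (Fl-Pcbp2/CD4cre), a Cre recombinase whose driver is active from thymic T cell development on. All 12 libraries thus carry the floxed allele. Since Cre is present in CKO alone, effects of Cre and of the deletion cannot be told apart. The labels call the animals littermates but tie no library to an animal and give no age. The p-values therefore measure the spread between libraries, which may in part be technical.

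Pcbp2 belongs to the poly(C)-binding proteins, RNA-binding proteins with KH domains that attach to cytosine-rich stretches of RNA. Members of the family act on splicing, on the stability of messenger RNA and on translation, and several also carry iron to other proteins. CD4+CD25- cells of the spleen are mostly resting helper T cells, which wait for antigen at a low metabolic rate.

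The libraries held 68.8 M to 85.6 M counts in CKO and 71.0 M to 79.3 M in CTL. All 6 CKO libraries were labelled male, but CKO 4.24 and CKO 5.6 held Xist, a transcript of female cells, at 1126 and 1283 CPM, and Ddx3y, a gene on Y, at 0.276 and 0.111 CPM. The other 4 CKO libraries had at most 3.33 CPM of Xist. In CTL, libraries 4.24, 5.6 and 10.28 were labelled female and had 1324 to 1530 CPM of Xist. The values without CKO 4.24 and CKO 5.6 are given wherever they changed a call. That comparison sets 4 male CKO libraries against 3 male and 3 female CTL libraries and breaks 2 pairs, so sex and genotype are not balanced in it. The labels give an RNA integrity range of 5.0 to 8.7 for the series and none per library, so its part in the results was not tested. Libraries are named by the number in their title. The numbers 4.24, 4.29, 5.6, 5.13 and 9.20 occur in both genotypes and paired libraries by their deviations, and blocked values are given wherever they changed a call.

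T cell identity genes were detected in both groups. EdgeR's quasi-likelihood test with Benjamini-Hochberg adjustment called 0 of 20 tested genes of that list, which holds the antigen receptor chains, Cd4 and the main T cell transcription factors, while 3 were called by DESeq2, 2 with the block, and 5 had an unadjusted p under 0.05. Over all 13530 genes tested, edgeR called 4.66%, DESeq2 9.65% and the block fit 8.65%. An unadjusted edgeR p under 0.05 was found for 2770 of the 13530. The median log2 fold change of the list was 0.02, against 0.00 over all genes tested. Cd4 itself stood at 1056 ± 123 CPM (SD, n = 6) in CTL and 1291 ± 106 CPM (SD, n = 6) in CKO. That difference had an edgeR adjusted p of 0.0835, of 0.0286 with the numbers as a block, and of 0.0391 without CKO 4.24 and CKO 5.6.

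Pcbp2 (ENSMUSG00000056851, GRCm38 chr15:102470539-102500061, plus strand) was nearly lost. Its level ran from 257 through a median of 314 to 363 CPM in CTL, and from 12.7 through 16.0 to 21.0 CPM in CKO. The lowest CTL library was thus far above the highest CKO library. Group means of 318 ± 36.9 CPM (SD, n = 6) and 15.9 ± 3.14 CPM (SD, n = 6) left 5.01% of the control level, a log2 fold change of −4.32 ± 0.14 (edgeR adjusted p = 8.88e-10). An exact two-sided permutation test over the 924 assignments gave p = 0.00216, the smallest value they allow. Over the 5 pairs alone the exact sign-flip test gave p = 0.0625, the smallest that 32 sign flips allow. The counts cover the whole gene, and which exons the floxed allele flanks is not given in the sources used here.

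The relatives of Pcbp2 did not pass the test. Pcbp1, the intronless relative closest to it in sequence, had 225 ± 32.4 CPM in CTL and 239 ± 30.4 CPM in CKO (SD, n = 6 each). Pcbp3 had a log2 fold change of 0.16 ± 0.09, Pcbp4 of 0.08 ± 0.08 and Hnrnpk, the heterogeneous nuclear ribonucleoprotein of the same family, of 0.01 ± 0.06, with edgeR adjusted p-values of 0.327, 0.656 and 0.966. The list of poly(C)-binding proteins thus held 1 call, Pcbp2, among 5 members.

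Genes around Pcbp2 were looked at because the floxed allele alters this locus. Within 250000 bases of it 27 genes are annotated, Pcbp2 included. Of these, 17 were tested and 3 were called: Pcbp2, Map3k12 and Gm26518. The share called over all genes tested was 4.66%. Map3k12 (chr15:102497646-102517064, minus strand), a kinase upstream of JNK whose 3′ end overlaps that of Pcbp2 on the other strand, ran from 17.7 through 21.3 to 24.5 CPM in CTL and from 33.9 through 42.0 to 44.3 CPM in CKO. The ranges did not overlap and the level was 1.91-fold higher in CKO (log2 fold change 0.93 ± 0.09, edgeR adjusted p = 5.47e-05).

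Gm26518 (chr15:102455526-102483722, minus strand), a long noncoding RNA antisense to the 5′ part of Pcbp2, fell from 2.08 ± 0.647 to 0.248 ± 0.0865 CPM (SD, n = 6 each; log2 fold change −3.06 ± 0.29, edgeR adjusted p = 6.77e-05). Whether counting used strand is not given in the sources used here. Reads of Pcbp2 and of the genes that overlap it, Map3k12 and Gm26518, cannot be told apart with certainty. Tarbp2, a partner of Dicer that lies downstream and does not overlap Pcbp2, had 49.9 ± 4.49 CPM in CTL and 63.3 ± 9.22 CPM in CKO. Its edgeR adjusted p was 0.0506, and 0.0301 with the numbers as a block. The nearest tested genes on the other side, Prr13 and the transcription factor Sp1, had log2 fold changes of 0.21 ± 0.08 and 0.05 ± 0.05 and were not called. Without CKO 4.24 and CKO 5.6 the edgeR adjusted p of Prr13 was 0.0433.

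The largest fold change of all was that of Gm33707, a transcript model annotated as a processed pseudogene. It was chosen here after its values were seen. Gm33707 (ENSMUSG00000102298, chr3:60769887-60770455, minus strand) resembles the messenger RNA of Eno1, the glycolytic enzyme enolase 1. Over 576 aligned bases the models were 89.2% identical to each other, with 54 mismatches and 8 gap bases. Alignments of at least 500 bases were found with 20 annotated transcripts, Eno1-201 among them. A stretch of 80 bases from each GENCODE M21 transcript (bases 372 to 451 of Gm33707 and 1387 to 1466 of Eno1-201, 5′ to 3′) is shown because reads can only be told apart by such differences. It was picked as the ungapped coding stretch with the most mismatches, so it differs more than the alignment as a whole. Capitals mark the 13 positions at which the stretches differ.
Gm33707: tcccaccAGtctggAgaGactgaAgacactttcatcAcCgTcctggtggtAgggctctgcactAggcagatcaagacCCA
Eno1: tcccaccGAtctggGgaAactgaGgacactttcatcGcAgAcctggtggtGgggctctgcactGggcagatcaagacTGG

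Gm33707 was close to absent in CTL, from 0.042 through 0.124 to 0.234 CPM, and ran from 29.8 through 46.4 to 67.1 CPM in CKO. All 6 CKO libraries thus lay above all 6 CTL libraries, at a log2 fold change of 8.50 ± 0.35 (edgeR adjusted p = 3.92e-08). Eno1 itself was at 448 ± 88.2 CPM in CTL and 386 ± 59.0 CPM in CKO (SD, n = 6 each; edgeR adjusted p = 0.386). Of 26 genes annotated within 1 Mb of Gm33707, 6 were tested and 0 were called by edgeR. At 6 h the model stood at 0.160 ± 0.148 CPM in CTL (SD, n = 5) and 37.7 ± 8.25 CPM in CKO (SD, n = 3). How reads that match several places were counted is not given in the sources used here, and its value is uncertain.

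**Figure D1:**
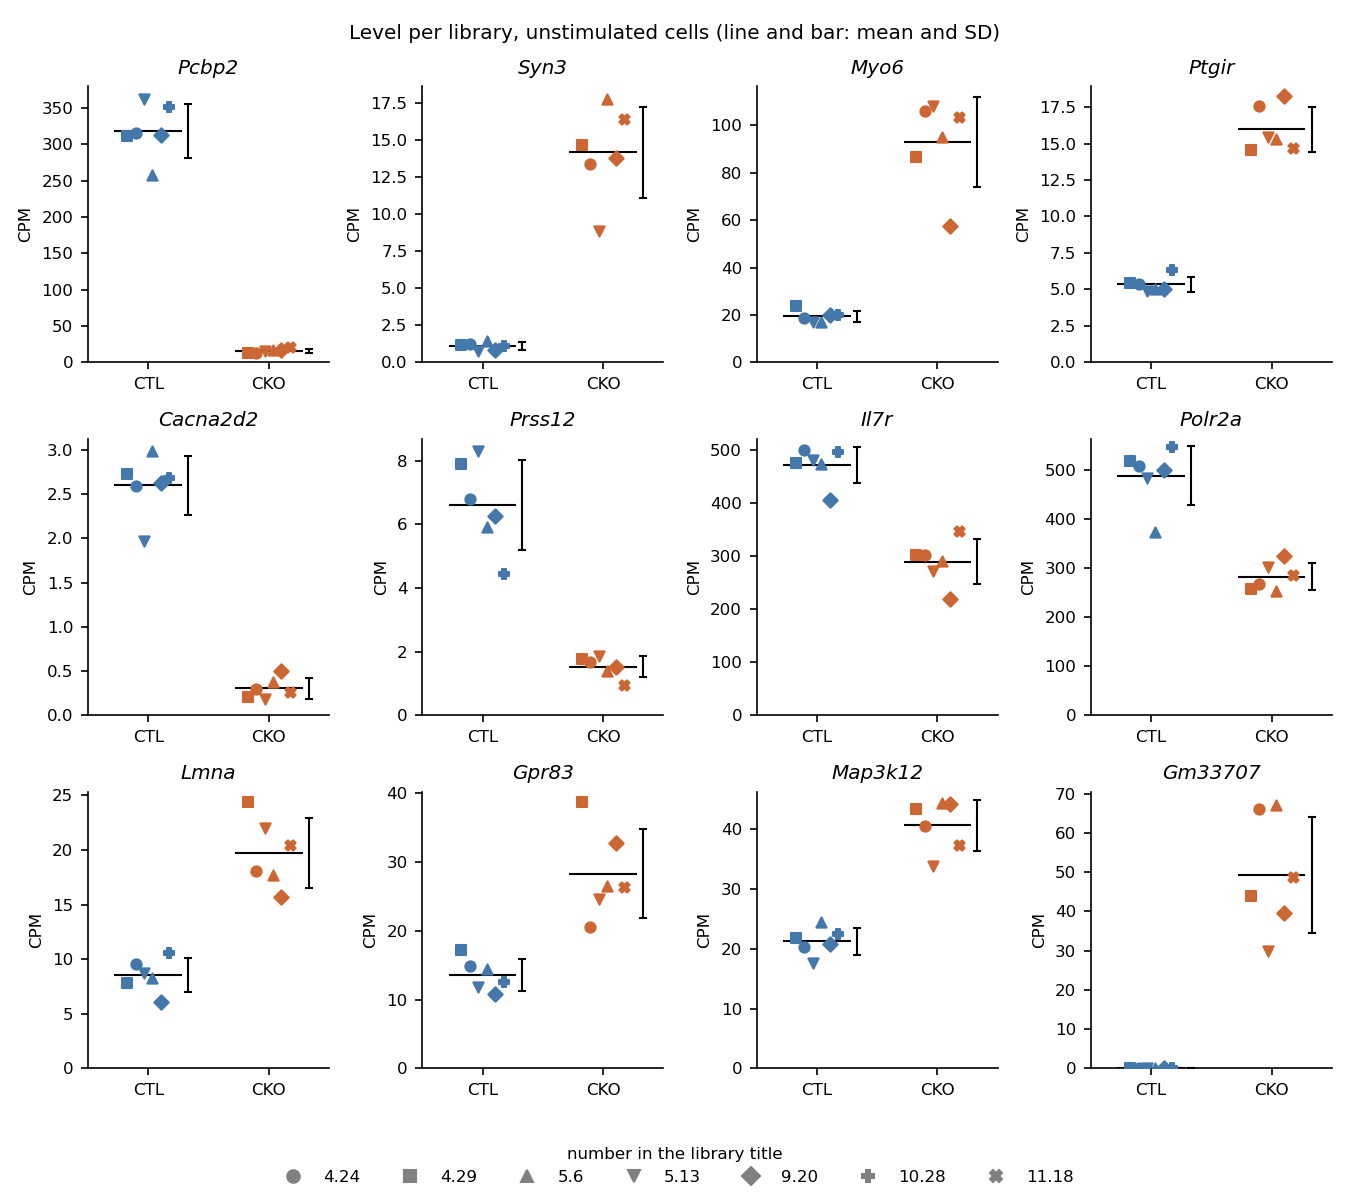
Level per library (vertical axes, CPM, linear from 0) of 12 genes in unstimulated CTL and CKO cells, with symbols for the number in the title and lines and bars for the mean and SD of 6 libraries. Every gene shown has groups that do not overlap, from Pcbp2 at 257 CPM or more in CTL and at most 21.0 CPM in CKO to Gm33707 at 0.234 CPM or less in CTL.

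Across all genes, 630 of 13530 were called at an adjusted p under 0.05, which is 4.66% of those tested. Of these, 278 were higher in CKO (2.05%) and 352 lower (2.6%). Most changes were small: the median size among called genes was 0.57 on the log2 scale, 325 were under 1.5-fold, and 110 reached 2-fold, 61 of them higher and 49 lower. Protein-coding genes made up 556 of the calls. The difference had the same sign in 5 of 5 pairs for 593 called genes, and 412 called genes had ranges that did not overlap. Both counts come from the libraries that gave the calls, so such agreement was favoured by the choice of genes. The share of all genes with the same sign in every pair was not counted. Ranges were apart in 512 genes in all (3.78% of those tested), 217 with CKO above (1.6%) and 295 with CKO below (2.18%).

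The number of calls depended on the fit more than their direction did. With the numbers as a block 1170 genes were called (8.65%), 519 of them among the 630, and by DESeq2 1306 (9.65%). Without CKO 4.24 and CKO 5.6 there were 1126, and leaving out CKO 4.29, CTL 9.20 or CTL 4.24 left 350, 392 or 415. Of the calls 44.1% were higher in CKO, against 54.8% without CKO 4.24 and CKO 5.6 and 61.1% with no filter on low levels. In each of the settings tried all 630 genes kept their sign, but the settings refit the same libraries and are not separate evidence.

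**Figure D2:**
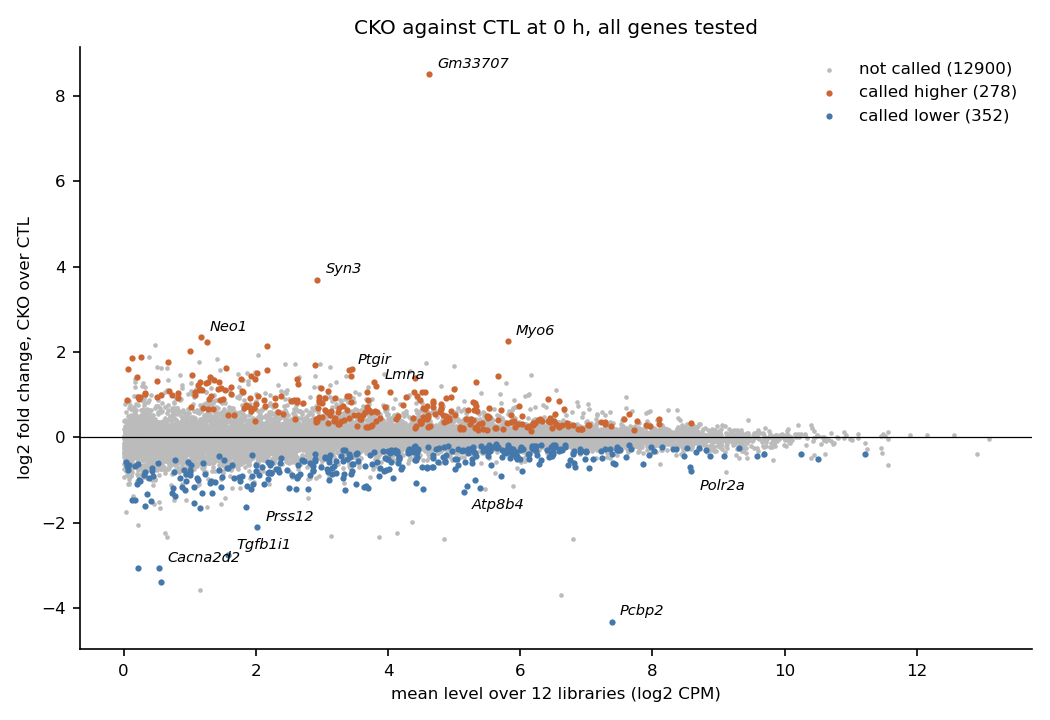
Log2 fold change of CKO over CTL (vertical axis) against the mean level over 12 libraries (horizontal axis, log2 CPM) for the 13530 genes tested, with 278 called higher and 352 called lower. Pcbp2 (−4.32) and Gm33707 (8.50) stand far from the rest, and the fold changes of called genes narrow as the level rises.

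The 12 largest named rises held proteins of synapses and excitable membranes. Syn3, a synapsin that coats synaptic vesicles, ran from 0.762 through 1.13 to 1.46 CPM in CTL and from 8.86 through 14.2 to 17.8 CPM in CKO. Every CKO library was thus several-fold above every CTL library, and the log2 fold change was 3.70 ± 0.20 (edgeR adjusted p = 3.31e-07). Its relative Syn1, with a log2 fold change of −0.50, was not called by edgeR (adjusted p = 0.0852), but was called lower by DESeq2 and with the block, while Syn2 was under the level limit. Timp3, a metalloproteinase inhibitor encoded within an intron of Syn3 on the other strand, had a mean of 0.0336 CPM and was not tested. Scn2b, an accessory subunit of voltage-gated sodium channels, rose from 1.66 ± 1.41 to 7.37 ± 1.22 CPM (SD, n = 6 each; log2 fold change 2.15 ± 0.40, edgeR adjusted p = 0.00806). Its highest CTL library, 9.20 at 4.48 CPM, still lay under the lowest CKO library at 6.04 CPM. Sh3gl3, an endophilin that bends membranes during endocytosis, rose 3.04-fold (edgeR adjusted p = 0.0243), but it lost its call with the block (adjusted p = 0.0639) and in 4 of the 12 fits that left out 1 library (CKO 4.29, CTL 4.24, CTL 5.6 or CTL 9.20), with edgeR adjusted p-values of up to 0.059.

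Motor, actin and adhesion genes were also among these rises. Myo6, the myosin that walks toward the minus end of actin filaments, ran from 16.9 through 19.3 to 23.6 CPM in CTL and from 57.6 through 99.3 to 108 CPM in CKO. It was the most abundant of the 12 and rose 4.79-fold (log2 fold change 2.26 ± 0.14, edgeR adjusted p = 1.85e-06). Actg2, the smooth muscle form of gamma actin, rose 2.98-fold, from 2.25 ± 0.565 to 6.71 ± 1.96 CPM (SD, n = 6 each; edgeR adjusted p = 0.00113). Tns4, a tensin of focal adhesions, rose 3.68-fold (edgeR adjusted p = 0.000634), and Fhdc1, a formin that acts on actin and microtubules, 2.77-fold (edgeR adjusted p = 0.00221). In both the ranges did not overlap, although the levels were low, at 1.89 ± 0.469 and 3.01 ± 0.887 CPM in CKO (SD, n = 6 each). Drc1, a subunit of the dynein regulatory complex of motile cilia, rose 3.10-fold to 4.42 ± 1.60 CPM (SD, n = 6; edgeR adjusted p = 0.0057).

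Receptors and an oxidase subunit made up the remainder. Ptgir, the receptor for prostacyclin, ran from 4.90 through 5.20 to 6.31 CPM in CTL and from 14.5 through 15.4 to 18.3 CPM in CKO. No CKO library came near the highest CTL library, and the gene was 2.98-fold higher in CKO (log2 fold change 1.58 ± 0.09, edgeR adjusted p = 3.96e-07). Acvr1c, a type I receptor for activins and nodal, rose 3.63-fold (edgeR adjusted p = 0.0109) and Noxa1, an activator of an NADPH oxidase, 3.41-fold (edgeR adjusted p = 0.00521). Neo1, the receptor neogenin, spread widely in CKO, from 0.696 CPM in library 4.24 to 7.58 CPM in library 9.20, and overlapped the CTL range of 0.277 to 1.10 CPM. Its log2 fold change of 2.35 ± 0.56 passed (edgeR adjusted p = 0.0335), but not with the block (adjusted p = 0.0861). The call held without CKO 4.24, CKO 5.6 or CKO 5.13 and was lost without any other library (edgeR adjusted p of up to 0.0788).

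The 12 largest named falls held channel and membrane genes. Cacna2d2, an accessory subunit of voltage-gated calcium channels, ran from 1.97 through 2.66 to 2.98 CPM in CTL and from 0.191 through 0.281 to 0.505 CPM in CKO. The groups were well apart, and the level was 8.41-fold lower in CKO (log2 fold change −3.07 ± 0.24, edgeR adjusted p = 1.19e-05). Atp8b4 and Atp8a2 encode flippases, which move phospholipids between the leaflets of a membrane. Atp8b4, the most abundant of the 12, fell from 50.2 ± 7.81 to 20.6 ± 4.49 CPM (SD, n = 6 each; edgeR adjusted p = 0.000319), and Atp8a2 from 5.48 ± 1.48 to 1.75 ± 0.390 CPM (edgeR adjusted p = 0.000542). In both genes the ranges did not overlap.

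Secreted proteins and a receptor followed. Prss12, the serine protease neurotrypsin, ran from 4.46 through 6.53 to 8.31 CPM in CTL and from 0.941 through 1.60 to 1.85 CPM in CKO. The ranges were apart and the gene was 4.31-fold lower in CKO (log2 fold change −2.11 ± 0.19, edgeR adjusted p = 4.79e-05). Orm1, an acute-phase plasma protein, Lcn4, a lipocalin, and Qrfp, a neuropeptide precursor, fell 2.76-fold, 2.47-fold and 2.45-fold, with edgeR adjusted p-values of 0.00681, 0.0203 and 0.000993. Lcn4 lost its call without CKO 4.29 (edgeR adjusted p = 0.0502). Ager, the receptor for advanced glycation end products, fell from 14.3 ± 4.10 to 6.07 ± 2.02 CPM (SD, n = 6 each; edgeR adjusted p = 0.00967).

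The other falls were in cytoskeletal and signalling genes. Tgfb1i1, a LIM protein of focal adhesions, had CTL levels from 0.599 to 12.1 CPM and CKO levels from 0.408 to 0.981 CPM. The groups overlapped through CTL 9.20 alone, and the call (log2 fold change −2.76 ± 0.52, edgeR adjusted p = 0.00988) was lost with the block (adjusted p = 0.0639). Actn2, an actin-crosslinking alpha-actinin, fell 3.16-fold and Card14, a scaffold protein that activates NF-kappaB, 2.35-fold, both with ranges apart (edgeR adjusted p = 0.00766 and 0.000943). Depdc1b, a DEP domain protein, fell 2.58-fold (edgeR adjusted p = 0.0253), and lost its call in 4 of the 12 fits that left out 1 library (CKO 4.29, CTL 4.24, CKO 5.13 or CKO 9.20), with edgeR adjusted p-values of up to 0.0631.

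Of these 24 genes, 10 of the 12 rises and 10 of the 12 falls had ranges that did not overlap, although the genes were picked for size and so had to differ. All 24 were called by DESeq2, which called all 630, and without CKO 4.24 and CKO 5.6, where 536 of the 630 were called. Among the 630, 196 were called with the labelled sex as a covariate and 603 with the Ddx3y level as a covariate. These fits reuse the libraries from which the genes were picked. With the labelled sex as a covariate 8 of the rises and 7 of the falls were called, and Neo1, Scn2b, Noxa1, Sh3gl3, Tgfb1i1, Actn2, Depdc1b, Lcn4 and Ager were not (edgeR adjusted p of up to 0.266, for Neo1). That label is male in all CKO libraries, and Xist and Ddx3y contradict it in CKO 4.24 and CKO 5.6. With the Ddx3y level as a covariate instead, each of these genes was called (edgeR adjusted p of up to 0.0336, for Neo1 and Depdc1b). Against a null fold of 1.5, 25 genes of the whole table passed, 5 of these rises (Syn3, Myo6, Tns4, Ptgir and Actg2) and 4 of these falls (Cacna2d2, Prss12, Atp8a2 and Atp8b4) among them.

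**Figure D3:**
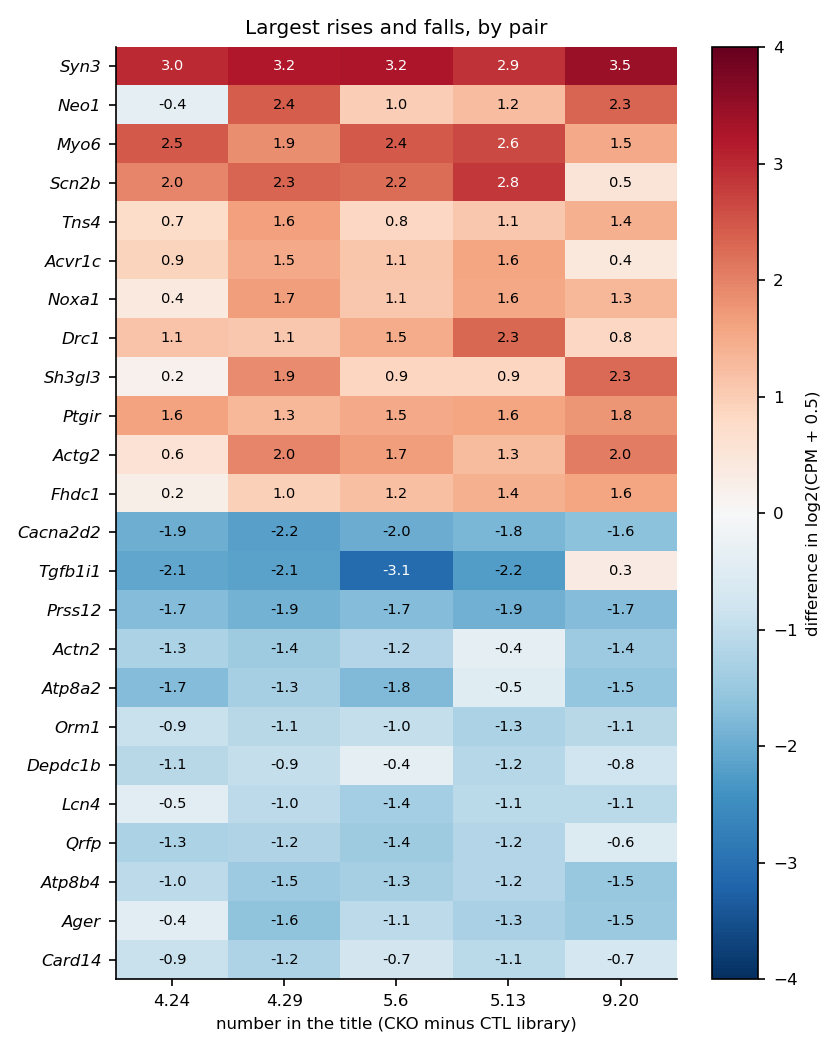
Difference between the CKO and the CTL library of the same number (columns; colour and printed value, in log2 of CPM + 0.5) for the 12 largest named rises and 12 largest named falls (rows). Each difference has the sign of the fit except Neo1 in pair 4.24 (−0.4) and Tgfb1i1 in pair 9.20 (0.3).

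Some genes with smaller but tight differences were named after their values were seen. Polr2a, the largest subunit of RNA polymerase II, ran from 373 through 504 to 547 CPM in CTL and from 253 through 277 to 325 CPM in CKO. The ranges were apart, and the level was 1.73-fold lower in CKO (log2 fold change −0.79 ± 0.09, edgeR adjusted p = 0.000358). Btbd2, a BTB domain protein, fell from 50.2 ± 5.14 to 22.8 ± 2.86 CPM (SD, n = 6 each; edgeR adjusted p = 1.21e-05), and Ggt5, an enzyme that cleaves glutathione conjugates, from 58.4 ± 7.08 to 25.5 ± 4.52 CPM (edgeR adjusted p = 9.91e-05). Herc3, a ubiquitin ligase, and Ccni, cyclin I, fell 1.43-fold and 1.51-fold (edgeR adjusted p = 0.000225 and 0.000211).

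In the other direction, Igsf23, an immunoglobulin superfamily gene, rose from 23.5 ± 2.99 to 57.3 ± 9.57 CPM (SD, n = 6 each; edgeR adjusted p = 4.56e-05). Cers6, a ceramide synthase, rose 1.85-fold (edgeR adjusted p = 0.00023), Mapk11, the p38 beta kinase, 1.59-fold (edgeR adjusted p = 0.000178), and Top3a, a topoisomerase, 1.56-fold (edgeR adjusted p = 0.000164). All of these genes, from Polr2a to Top3a, had groups whose ranges did not overlap.

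Lists of genes for T cell biology, for the known roles of Pcbp2 and for some gene families were read by their counts. Those families include synapsins, unconventional myosins and prostanoid receptors. Lists and members were chosen with earlier results of these data known, so calls within them are not separate evidence. Over all genes 4.66% were called and the median log2 fold change was 0.00. Of all genes the block fit called 8.65% and DESeq2 9.65%. Without CKO 4.24 and CKO 5.6, 1126 of 13530 were called, and 2770 of 13530 had an unadjusted edgeR p under 0.05. Among antigen receptor signalling genes 1 of 39 was called (median 0.05). Orai1, the pore of the store-operated calcium channel, rose from 49.3 ± 4.57 to 62.0 ± 5.60 CPM (SD, n = 6 each; edgeR adjusted p = 0.0212). Its paralogue Orai2, outside the list and chosen after its values were seen, fell from 284 ± 14.9 to 212 ± 11.6 CPM (edgeR adjusted p = 0.000634). Orai1 lost its call without CKO 4.29, CTL 4.24 or CTL 9.20 (edgeR adjusted p of up to 0.0545), and with the block 2 members of the list were called, both higher.

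Il7r, the receptor chain through which resting T cells receive their main survival signal, was the called member of the list on the interleukin 2 system (1 of 16, median 0.08; 3 with the block). It ran from 405 through 478 to 499 CPM in CTL and from 219 through 296 to 347 CPM in CKO. No CKO library reached the lowest CTL library, and the level was 1.63-fold lower (log2 fold change −0.71 ± 0.10, edgeR adjusted p = 0.000943). In the list of the naive state and homing it was 1 of 2 calls among 27 members (median −0.03). The other, Tob1, an inhibitor of proliferation, had a log2 fold change of −0.30 ± 0.08 and an edgeR adjusted p of 0.0498 (0.0911 with the block). The call of Tob1 held without CKO 4.24 or CKO 5.13 and was lost without any other library (edgeR adjusted p of up to 0.107).

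Genes of the antigen-experienced state held 2 calls among 29 (median −0.03), both lower. Id2, an inhibitor of E proteins that favours effector differentiation, fell from 95.2 ± 21.2 to 61.2 ± 3.09 CPM (SD, n = 6 each; edgeR adjusted p = 0.0109). Cxcr6, a chemokine receptor of effector and resident T cells, fell 2.31-fold (edgeR adjusted p = 0.0245), and lost its call, though not its direction, without CKO 4.29, CTL 4.24 or CKO 9.20 (edgeR adjusted p of up to 0.0645). In the list of immediate early genes and AP-1 factors, 3 of 28 were called (median −0.04; 6 with the block). Myc and Egr3, transcription factors induced on activation, fell 1.40-fold and 1.39-fold, and Nfkbia, the inhibitor of NF-kappaB, rose 1.30-fold, with edgeR adjusted p-values of 0.0109, 0.029 and 0.0333. Egr3 lost its call without CKO 4.24 and CKO 5.6 (edgeR adjusted p = 0.0586). Egr3 also lost it without CKO 4.29, CKO 5.6, CKO 11.18, CTL 4.24, CTL 4.29, CTL 9.20 or CTL 10.28 (edgeR adjusted p of up to 0.0725), and Nfkbia without CKO 4.29, CTL 4.24, CTL 4.29, CTL 5.6, CTL 5.13 or CTL 9.20 (up to 0.08). With the block or without CTL 10.28 the median of the list was 0.17 or 0.20.

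Lists for several helper lineages had positive medians. All 9 tested Th17 genes had a higher fitted level in CKO, with a median log2 fold change of 0.74. EdgeR called 2 (3 with the block), and 9 had an unadjusted p under 0.05, against 2770 of 13530 over all genes. Ccr6, a chemokine receptor of these cells, ran from 2.95 through 4.11 to 7.49 CPM in CTL and from 5.75 through 10.7 to 18.7 CPM in CKO. The ranges overlapped, and the edgeR adjusted p of Ccr6 was 0.0467. Its call held without CKO 4.24, CKO 11.18 or CTL 10.28 and was lost without any other library (edgeR adjusted p of up to 0.104). Il17a, Il17f, Il22 and Il23r were under the level limit and not tested. The summed level of the tested Th17 genes ran from 223 to 329 CPM in CTL and from 229 to 595 CPM in CKO, so the groups overlapped. Leaving out each library in turn put the median of the list between 0.63 (without CTL 4.29) and 0.96 (without CTL 9.20).

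Among T follicular helper genes all 14 were positive, with a median of 0.61. EdgeR called 1, and 10 had an unadjusted p under 0.05. Tox2, an HMG box factor of these cells, ran from 19.8 through 29.6 to 31.3 CPM in CTL and from 22.5 to 143 CPM in CKO, where library 4.24 was lowest and 9.20 highest. Its log2 fold change of 1.44 ± 0.35 (edgeR adjusted p = 0.0355) did not pass with the block (adjusted p = 0.106). The call held without CKO 4.24 or CKO 5.6 and was lost without any other library (edgeR adjusted p of up to 0.0852). Without CKO 4.24 and CKO 5.6, 9 members of the list were called higher, and 0 with the block, where its median was 0.40.

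Of the regulatory T cell genes 19 of 20 were positive, with a median of 0.61, and 15 had an unadjusted edgeR p under 0.05. Called were 4, 3 higher and 1 lower (5 higher with the block, 9 higher without CKO 4.24 and CKO 5.6). Gpr83, an orphan receptor of these cells, ran from 10.8 through 13.5 to 17.2 CPM in CTL and from 20.6 through 26.5 to 38.8 CPM in CKO, with no overlap (log2 fold change 1.05 ± 0.15, edgeR adjusted p = 0.00144). Capg, an actin-capping protein, rose 1.81-fold and Ebi3, a cytokine subunit, 1.61-fold (edgeR adjusted p = 0.0113 and 0.0181). Itgae, the integrin chain CD103, fell 1.60-fold (log2 fold change −0.68, edgeR adjusted p = 0.0342). Its call was lost with the block (−0.58, adjusted p = 0.0541) and without CKO 4.24 and CKO 5.6 (−0.71, adjusted p = 0.0503). Its call held without CKO 4.24, CTL 4.29 or CTL 9.20 and was lost without any other library (edgeR adjusted p of up to 0.0788). Foxp3, the factor that defines these cells, was at 45.8 ± 12.7 CPM in CTL and 66.6 ± 22.7 CPM in CKO (edgeR adjusted p = 0.236), so it was present in sorted CD25- cells of both genotypes.

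The summed level of the regulatory list ran from 629 to 1122 CPM in CTL and from 791 to 2166 CPM in CKO, and that of the T follicular helper list from 892 to 1388 CPM and from 1085 to 2410 CPM. In both lists, as in the Th17 list, CKO 9.20 was highest, CTL 10.28 was lowest and the groups overlapped. Without CKO 9.20 the medians of the regulatory and T follicular helper lists were 0.52 and 0.44. In bulk libraries, fewer or more cells of a type and less or more RNA per cell cannot be told apart. The part of such cells in the calls named here was not tested.

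The Th2 list had a median of 0.52 and 0 calls among 7 by edgeR (2 by DESeq2, and 3 with an unadjusted p under 0.05). Gata3, the factor that defines these cells, stood at 89.8 ± 5.04 and 89.2 ± 10.7 CPM (SD, n = 6 each). The chemokine receptor Ccr4 had an edgeR adjusted p of 0.108, and of 0.0168 with the block. The Th1 list had a median of −0.16 and 1 call among 13, and 3 had an unadjusted edgeR p under 0.05. Il18r1, a receptor chain for an inflammatory cytokine, ran from 113 through 134 to 170 CPM in CTL and from 69.8 through 93.9 to 104 CPM in CKO. It fell 1.52-fold without overlap (edgeR adjusted p = 0.00876).

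Of 16 chemokine receptors, 3 were called (median −0.06): Ccr6 higher, and Cxcr6 and Cxcr1 lower. Cxcr1, a receptor for CXC chemokines, fell 1.75-fold from 2.56 ± 0.537 CPM (SD, n = 6; edgeR adjusted p = 0.0344, or 0.0552 with the block), and held its call without CKO 5.6, CKO 11.18, CTL 4.24 or CTL 5.6 and was lost without any other library (edgeR adjusted p of up to 0.0766). Of 24 integrins and laminins, 4 were called (median 0.09). Lamc1, a laminin gamma chain, rose 2.62-fold, from 9.47 through 11.3 to 15.3 CPM in CTL to 16.5 through 29.1 to 42.1 CPM in CKO (edgeR adjusted p = 0.00243). The lowest CKO library, 4.24, lay just above the highest CTL library. Itga7, a laminin-binding integrin chain, rose 1.59-fold (edgeR adjusted p = 0.018), while Itga1, a collagen-binding chain, fell 1.90-fold (edgeR adjusted p = 0.0243), as did Itgae. Itga1 lost its call without CKO 4.29, CKO 11.18, CTL 4.24, CTL 5.6 or CTL 10.28 (edgeR adjusted p of up to 0.0644).

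**Figure D4:**
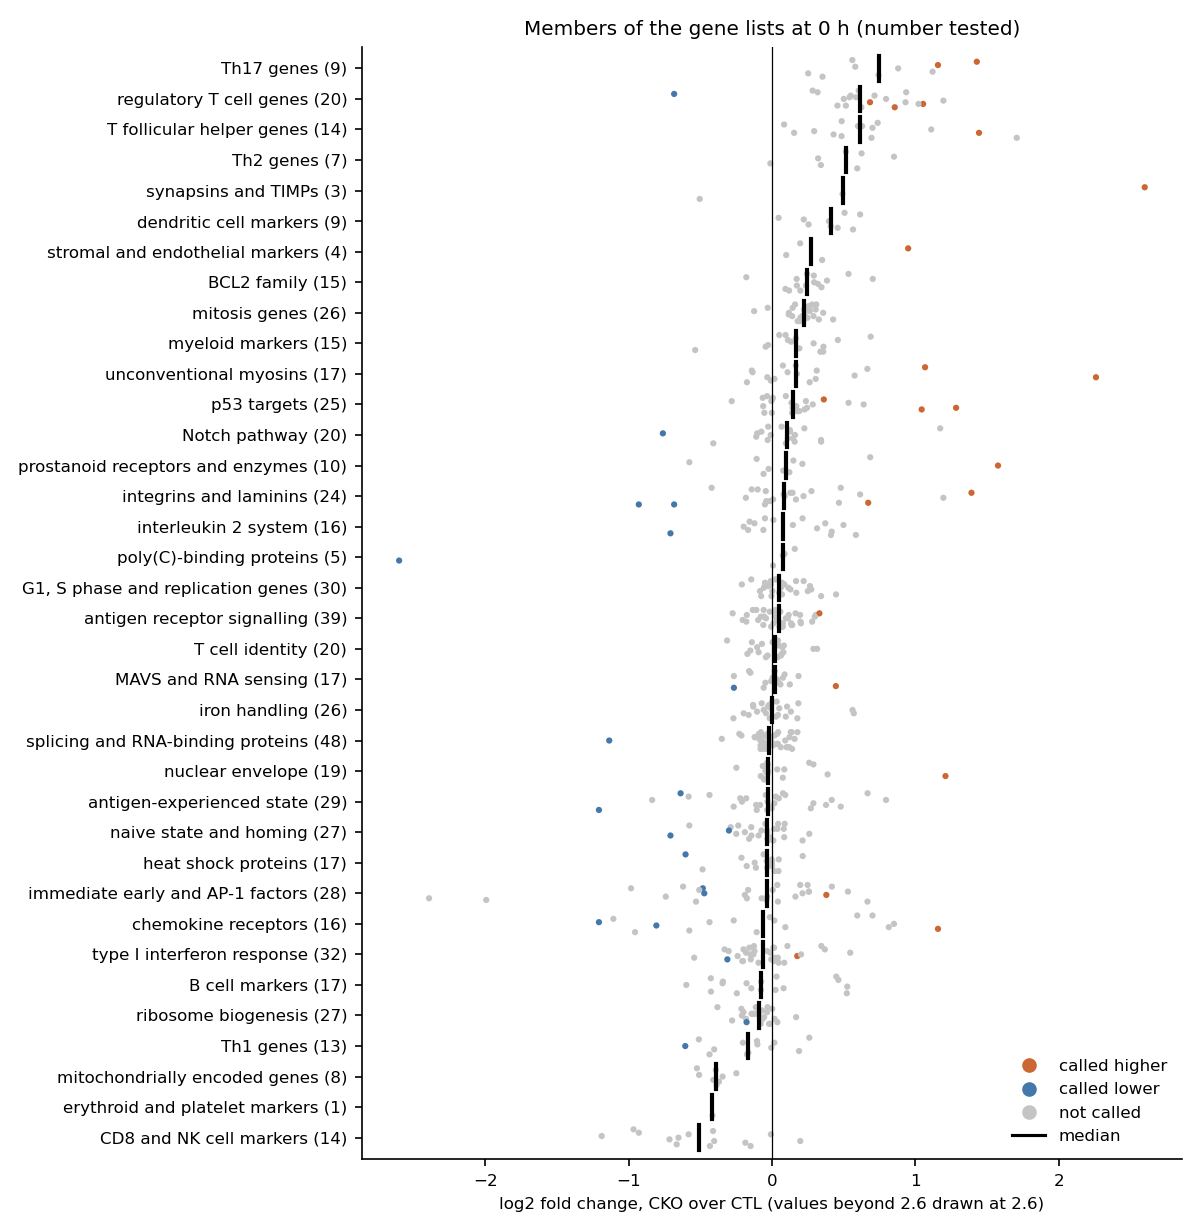
Log2 fold change of CKO over CTL (horizontal axis) for every tested member of the gene lists (rows, number tested in brackets), with called members coloured and black ticks at the medians. Medians run from 0.74 for Th17 genes to −0.51 for CD8 and NK cell markers. Regulatory T cell genes (3 higher, 1 lower) and integrins and laminins (2 higher, 2 lower) hold the most coloured points.

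Among p53 targets 3 of 25 were called, all higher (median 0.14). Phlda3, an inhibitor of Akt, ran from 0.867 through 1.40 to 1.66 CPM in CTL and from 2.27 through 3.24 to 3.97 CPM in CKO, with no overlap (log2 fold change 1.28 ± 0.22, edgeR adjusted p = 0.00498). Cdkn1a, the cyclin-dependent kinase inhibitor p21, rose 2.06-fold to 2.38 ± 0.730 CPM (SD, n = 6; edgeR adjusted p = 0.027, or 0.0505 with the block), and Fas, a death receptor, 1.29-fold (edgeR adjusted p = 0.027). Cdkn1a lost its call without CKO 4.29, CKO 9.20, CTL 4.29, CTL 5.6 or CTL 9.20 (edgeR adjusted p of up to 0.0664). Fas lost it without CKO 9.20, CTL 4.24, CTL 4.29, CTL 5.13, CTL 9.20 or CTL 10.28 (up to 0.0603).

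Cell cycle lists held no call by edgeR. Of 26 mitosis genes 24 were positive, with a median of 0.23. DESeq2 also called 0, and 0 had an unadjusted p under 0.05. With the block, 4 were called higher. The summed level ran from 186 to 589 CPM in CTL and from 277 to 544 CPM in CKO, and without CTL 10.28, the highest library, the median was 0.52. Mki67, the usual marker of proliferation, had 77.7 ± 41.7 and 92.8 ± 34.2 CPM (SD, n = 6 each). The 30 genes of G1, S phase and replication had a median of 0.05, with 1 called by DESeq2 and 3 with an unadjusted p under 0.05. Ccnd2, a D-type cyclin, had a log2 fold change of −0.21 ± 0.11 (edgeR adjusted p = 0.325).

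The BCL2 family, which sets the threshold for apoptosis, had 14 of 15 members positive (median 0.24) and 0 calls by edgeR. DESeq2 called 3, the block fit 3, and 6 had an unadjusted p under 0.05, against 2770 of 13530 over all genes. Bcl2 itself, the survival factor, had 211 ± 32.8 CPM in CTL and 275 ± 34.4 CPM in CKO (SD, n = 6 each), with an edgeR adjusted p of 0.0599, and of 0.0372 with the block. The summed list ran from 992 to 1161 CPM in CTL and from 1200 to 1390 CPM in CKO, with no overlap. Mcl1 and Bcl2 made up most of that sum, and 0 of the 15 members had ranges apart. Mcl1, another survival factor, was not called at 586 ± 47.1 and 662 ± 46.6 CPM.

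Of 48 tested splicing factors and other RNA-binding proteins, 1 was called (median −0.02; 3 with the block). Raver2, a ribonucleoprotein that binds the splicing repressor PTB, fell 2.20-fold with no overlap, from 17.5 ± 2.56 CPM in CTL to 7.96 ± 1.70 CPM in CKO (SD, n = 6 each; edgeR adjusted p = 0.000634). Of 27 ribosome biogenesis genes 4 were positive (median −0.09). Polr1b, a subunit of RNA polymerase I, was the call, with a log2 fold change of −0.18 ± 0.05 and an edgeR adjusted p of 0.0482. Its call was lost with the block (adjusted p = 0.0788), where 5 other members were called, 1 higher and 4 lower, and without CKO 4.24 and CKO 5.6 (adjusted p = 0.0638). It held without CTL 5.13 and was lost without any other library (edgeR adjusted p of up to 0.113).

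Pcbp2 is known to bind the antiviral adaptor MAVS and to take part in iron transfer, and lists for both were read. In the MAVS and RNA sensing list 2 of 17 were called (median 0.02). Ddx58, the RNA sensor RIG-I, fell 1.20-fold, from 170 ± 5.91 to 142 ± 5.84 CPM (SD, n = 6 each; edgeR adjusted p = 0.00331), with ranges apart. Nlrx1, a mitochondrial regulator of MAVS, rose 1.36-fold (edgeR adjusted p = 0.0129, or 0.0539 with the block). Of 32 genes of the type I interferon response 2 were called (median −0.06). Irgm1, an interferon-inducible GTPase, had a log2 fold change of −0.31 ± 0.08 (edgeR adjusted p = 0.0334). Ifnar1, a chain of the interferon receptor, had one of 0.18 ± 0.05 (edgeR adjusted p = 0.0464, or 0.107 without CKO 4.24 and CKO 5.6). The call of Irgm1 held without CKO 4.24, CKO 5.13 or CTL 4.29, and that of Ifnar1 without CKO 5.13. Both were lost without any other library (edgeR adjusted p of up to 0.0686 and 0.102).

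Of 26 iron handling genes edgeR called 0 (median 0.00), DESeq2 1 and the block fit 1, and 5 had an unadjusted p under 0.05. Fth1 and Ftl1, the ferritin chains that store iron, had log2 fold changes of −0.13 ± 0.10 and −0.10 ± 0.08. Tfrc, the transferrin receptor, was at 44.5 and 44.7 CPM in the CTL and CKO means.

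The remaining lists, some of them families of genes already named above, held few calls. Lmna, the gene of lamins A and C under the nuclear membrane, ran from 6.11 through 8.53 to 10.6 CPM in CTL and from 15.7 through 19.3 to 24.4 CPM in CKO. It rose 2.31-fold without overlap (edgeR adjusted p = 0.000276) and was the 1 call among 19 nuclear envelope genes (median −0.03; 3 with the block). Of 17 unconventional myosins, Myo6 and Myo1e were called (median 0.17). Myo1e, a membrane-linked class I myosin, ran from 9.47 through 16.1 to 17.8 CPM in CTL and from 13.8 through 29.3 to 46.2 CPM in CKO. The ranges overlapped through CKO 4.24 alone (edgeR adjusted p = 0.0328, or 0.0932 with the block). Its call held without CKO 4.24, CKO 5.6 or CKO 11.18 and was lost without any other library (edgeR adjusted p of up to 0.0759). Ptgir was the 1 call among 10 prostanoid genes (median 0.10; 3 with the block). Ptger4, a receptor for another prostaglandin, was not called (edgeR adjusted p = 0.0661).

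Syn3 was the 1 call among 3 tested synapsins and metalloproteinase inhibitors (3 with the block). Of 20 Notch pathway genes Dtx4, a ubiquitin ligase of the pathway, was called. It fell 1.69-fold (log2 fold change −0.76, edgeR adjusted p = 0.0465). Its call was lost with the block (−0.75, adjusted p = 0.0559) and without CKO 4.24 and CKO 5.6 (−0.78, adjusted p = 0.0701). Its call held without CKO 4.24, CTL 5.6 or CTL 10.28 and was lost without any other library (edgeR adjusted p of up to 0.0959). Of 17 heat shock genes 1 was called. Dnajc15, a mitochondrial co-chaperone, fell from 21.3 ± 2.64 to 14.0 ± 1.72 CPM (SD, n = 6 each; edgeR adjusted p = 0.0038), with ranges apart. The 8 tested mitochondrially encoded genes had a median of −0.39 and 0 calls by edgeR or DESeq2, and 0 had an unadjusted p under 0.05. Their summed level ran from 12602 to 28381 CPM in CTL, where 5.6 was highest, and from 11167 to 16761 CPM in CKO. That sum leaves out 5 members of the list under the level limit, among them mt-Co2 and mt-Co3 at means of 0.53 and 0.91 CPM. Why these were so low was not tested.

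Markers of other cell types were present at low or moderate levels in both genotypes. The summed B cell list ran from 880 to 2224 CPM in CTL and from 1117 to 2258 CPM in CKO, the myeloid list from 103 to 215 CPM and from 102 to 227 CPM, and the dendritic cell list from 73.5 to 238 CPM and from 97.7 to 293 CPM. The ranges of CTL and CKO overlapped in each list. All 9 dendritic cell markers were positive (median log2 fold change 0.41, or 0.74 with the block), as were 12 of 15 myeloid markers (median 0.17, or 0.34 with the block) and 7 of 17 B cell markers (median −0.08, or 0.04 with the block). Leaving out each library in turn put the dendritic median between 0.07 (without CKO 11.18) and 0.68 (without CTL 10.28). EdgeR called 0 of 17 B cell, 0 of 15 myeloid and 0 of 9 dendritic cell markers, DESeq2 called 0 in each, and 0, 1 and 0 had an unadjusted p under 0.05. Cybb, an oxidase subunit of phagocytes, had 45.5 ± 9.28 and 73.4 ± 32.5 CPM (SD, n = 6 each; edgeR adjusted p = 0.19, or 0.0133 without CKO 4.24 and CKO 5.6).

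The CD8 and NK cell list was the only marker list with a median under −0.5 (−0.51 over 14 genes, 1 of them positive). EdgeR called 0, DESeq2 3 and the block fit 2, and 3 had an unadjusted p under 0.05. It summed to 141 to 349 CPM in CTL and 134 to 185 CPM in CKO. Library CTL 5.6 was highest, and without it the median was −0.29. Cd8a stood at 16.0 and 14.4 CPM in the group means. Among 4 tested stromal and endothelial markers Col1a1, a collagen chain, was called at 1.54 ± 0.483 CPM in CKO and 0.796 ± 0.187 CPM in CTL (SD, n = 6 each; edgeR adjusted p = 0.0342, or 0.0991 with the block). Its call held without CKO 4.24, CKO 5.13, CTL 4.24 or CTL 5.6 and was lost without any other library (edgeR adjusted p of up to 0.0852). Of the erythroid and platelet markers 1 of 13 reached the level limit. The part of these cells in the results above was not tested.

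Called genes were also read by sequence, since Pcbp2 binds cytosine-rich RNA. Among the longest GENCODE transcripts, genes called higher had a median cytosine content of 25.5% and genes called lower one of 24.5%, against 24.1% over all genes tested. In 3′ untranslated regions the medians were 23.0%, 22.0% and 22.0%. Median transcript lengths were 3297, 3500 and 3118 bases. These are descriptions of the transcript models, and the level or length of the genes was not matched.

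Promoters are shown for Ptgir, Cacna2d2 and Myo6, which moved strongly with groups apart, in both directions. Each is the 250 bases before the RefSeq start (GRCm38.p6, plus strand, 5′ to 3′), at chr7:16906240-16906489, chr9:107399630-107399879 and chr9:80164784-80165033. Capitals mark the pyrimidine-rich motif CCCTCC or its reverse complement GGAGGG, searched on both strands with overlaps counted.
Ptgir: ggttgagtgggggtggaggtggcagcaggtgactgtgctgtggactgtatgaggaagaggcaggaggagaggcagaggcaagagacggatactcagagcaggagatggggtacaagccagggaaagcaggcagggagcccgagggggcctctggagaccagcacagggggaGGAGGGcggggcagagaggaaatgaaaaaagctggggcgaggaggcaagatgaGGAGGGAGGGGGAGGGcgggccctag
Cacna2d2: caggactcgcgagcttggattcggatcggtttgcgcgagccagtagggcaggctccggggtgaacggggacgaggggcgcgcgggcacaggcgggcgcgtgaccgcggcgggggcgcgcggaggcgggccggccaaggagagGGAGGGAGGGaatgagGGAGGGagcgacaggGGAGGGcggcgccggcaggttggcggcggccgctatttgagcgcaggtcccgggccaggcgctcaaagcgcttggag
Myo6: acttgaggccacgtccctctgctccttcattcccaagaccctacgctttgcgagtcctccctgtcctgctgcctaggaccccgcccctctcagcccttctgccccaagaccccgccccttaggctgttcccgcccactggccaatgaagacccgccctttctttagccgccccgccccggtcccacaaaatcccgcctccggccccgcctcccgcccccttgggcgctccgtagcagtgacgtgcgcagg

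The motif occurred 4 times before Ptgir, which rose, 4 times before Cacna2d2, which fell, and 0 times before Myo6, which rose. Prss12, which fell, had 1 match. Of all RefSeq promoters, 35.2% held it, over genes tested 43.0%, over genes called higher 45.6% and over genes called lower 47.1%. A match describes these letters in this window and is not a binding site.

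By chromosome the share of tested genes that were called ran from 3.10% on chromosome 18 to 5.68% on chromosome 15, which holds Pcbp2, and was 0 of 7 on Y. The calls were thus spread over the genome.

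The 0 h differences were then set beside those at 6 h with CD3/CD28 beads, from 5 CTL and 3 CKO libraries of the same sort, in a fit over all 20 libraries. The 6 h libraries held 26.4 M to 69.4 M counts in CTL and 65.3 M to 76.8 M in CKO. At 6 h 118 genes were called (0.872% of those tested). Of the 630 called at 0 h, 72 were also called at 6 h with the same sign, which is 11.4% of the 0 h calls and 61.0% of the 6 h calls. These shares compare unlike fits. The 630 come from the fit to the 0 h libraries alone, and the 6 h calls from the fit over all 20 libraries. In that fit 290 genes were called at 0 h, and the share of these 290 also called at 6 h was not counted. The 11.4% is therefore no measure of how much of the 0 h effect was lost at 6 h. The groups at both times share library numbers and may come from the same animals. The difference between both genotype effects was called for 0 genes by edgeR, against 721 at an unadjusted p under 0.05, 87 of them among the 0 h calls. A difference between the times is thereby not shown.

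Some of the genes with the largest 0 h differences also passed at 6 h. Ptgir was at 3.70 ± 0.558 CPM in CTL (SD, n = 5) and 16.7 ± 5.17 CPM in CKO (SD, n = 3), a log2 fold change of 2.18 ± 0.17 (edgeR adjusted p = 2.62e-07). Myo6 was at 43.4 ± 9.35 and 169 ± 48.2 CPM, with 1.96 ± 0.20 (edgeR adjusted p = 2.28e-05). Syn3 had 2.48 ± 0.32 and Prss12 −1.77 ± 0.32 (edgeR adjusted p = 0.000458 and 0.00799). Noxa1 had 2.34 ± 0.40 (edgeR adjusted p = 0.00674). Lamc1 and Cers6 also passed, with 1.34 ± 0.23 and 1.18 ± 0.13 (edgeR adjusted p = 0.00717 and 5.1e-05). Of the 12 largest rises 4 and of the 12 largest falls 1 were called at 6 h.

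Other genes called at 0 h did not pass at 6 h. Lmna was at 14.0 ± 7.47 CPM in CTL (SD, n = 5) and 14.0 ± 0.739 CPM in CKO (SD, n = 3), and its effect at 6 h minus that at 0 h was −1.21 ± 0.35, with an unadjusted edgeR p of 0.00273 and an adjusted p of 0.659. For Cdkn1a, which stood at 30.9 ± 10.5 CPM in CTL and 20.2 ± 3.46 CPM in CKO at 6 h, that difference was −1.66 ± 0.39 (unadjusted p = 0.000358, edgeR adjusted p = 0.659). Tns4 and Drc1 had −2.34 ± 0.74 and −2.59 ± 0.75, also with edgeR adjusted p-values of 0.659. Their CTL levels at 6 h were 1.13 ± 1.36 and 0.782 ± 0.812 CPM (SD, n = 5). Without the 6 h library CTL 4.24 the edgeR adjusted p of the difference was 0.925 for Lmna, Tns4 and Drc1. Il7r kept a log2 fold change of −0.53 ± 0.15 at 6 h that did not pass (edgeR adjusted p = 0.123).

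**Figure D5:**
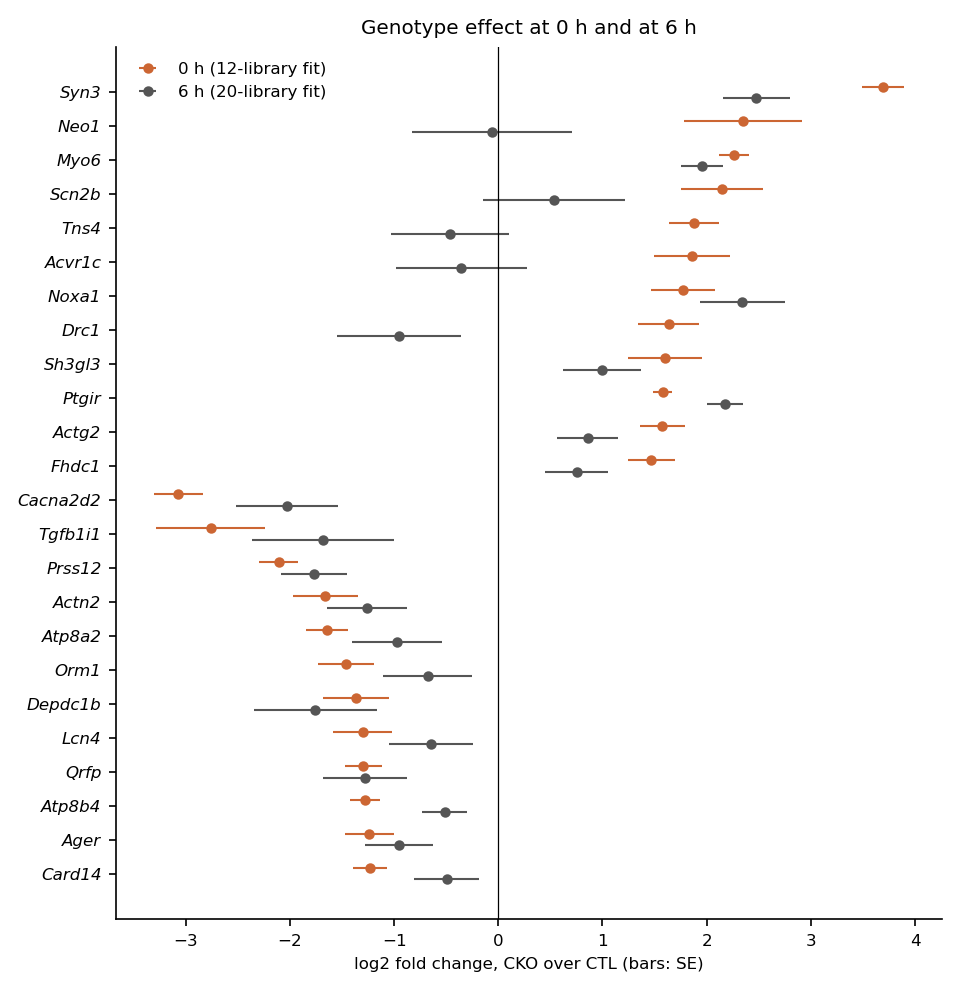
Log2 fold change of CKO over CTL with its SE (horizontal axis) for the 12 largest named rises and 12 largest named falls at 0 h (12-library fit) and at 6 h (20-library fit). Ptgir, Myo6, Syn3, Noxa1 and Prss12 stay on the same side with bars clear of 0. Neo1 (−0.06), Acvr1c (−0.35), Tns4 (−0.46) and Drc1 (−0.96) lie on the other side at 6 h. In those genes the SD of the CTL libraries at 6 h exceeded their mean. The genes were picked for their 0 h values.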

How the data were processed

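The authors deposited whole-number counts per Ensembl gene, not normalized, with 1 column per library. Per the labels' protocols, stranded mRNA libraries were sequenced as paired ends. Listed in the submitters' processing notes are the build GRCm38 and the tools STAR 2.5.2b, Subread 1.5.2, featureCounts and Trimmomatic 0.36. Not given in the sources used here are their roles, the strand setting and the annotation release. Of 49315 identifiers, 49056 matched GENCODE M21, which gave symbols and coordinates, and 259 did not. There were 0 columns of other samples.

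Genes with a mean of at least 1 CPM over the 12 libraries entered edgeR 4.0.16 (R 4.3.3): TMM factors, glmQLFit with robust estimation, genotype only, two-sided, called at a Benjamini-Hochberg adjusted p under 0.05 over all 13530 genes. CPM are counts per 1 M of the TMM-scaled library, ± is the SD for CPM and the SE for log2 fold changes. The scripts were tested on simulated data. Total counts set the depth (68.8 M to 85.6 M), and the spread between libraries sets the precision. No library was a copy: chi-square per degree of freedom was 42.0 to 233 over 30 pairs within groups.

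Same-numbered CTL and CKO libraries deviated together from their group means, with correlations of 0.16 to 0.71 in all 5 pairs against a median of −0.07 between different numbers, so the numbers were taken to pair them, although 4.24 (0.16) correlated better with another number than with its own. The pairing comes from the data and the titles, since the labels do not say what a number marks.

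Named are the poly(C)-binding proteins; the 12 largest called rises and 12 largest falls, leaving out Pcbp2, sex-linked transcripts, model-named genes and receptor segments; from each of 36 lists the called members with the lowest adjusted p (at most 4), or, with 0 called, at most 2 of highest level; and tested genes within 250000 bases of Pcbp2. 1 gene that this rule names is not reported here. Eno1, Syn1, Foxp3, Cd8a, Tfrc and Ptger4 lie outside this rule and, like the genes so marked in the text, were picked with their values in view. The members and lists were chosen with earlier results of these data known. Alternatives were RLE factors, no filter, DESeq2 1.42.0, the block, sex as labelled or the Ddx3y level as a covariate, all 20 libraries, a null fold of 1.5, and leaving out libraries. The labelled sex is not in the model because 2 CKO libraries contradict it.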

Additional observations from a re-analysis of the deposited data

Results flagged for a closer look

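In 12 of 130 values examined, 1 library stood apart from the other 5 of its group. The values were the 0 h levels of the 24 largest named changes, of the 5 poly(C)-binding proteins and of 36 summed lists, each in CTL and in CKO. A library was set apart where its distance to the nearest other library, as a share of the group's range on the log2 scale, passed the limit of 0.625. Chance sets apart about 1 group in 20.

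Among genes, Myo6, the minus-end myosin, had 57.6 CPM in CKO 9.20 against 86.5 to 108 CPM in the other CKO libraries (share 0.644). That library still lay above every CTL library. Scn2b, the sodium channel subunit, had 4.48 CPM in CTL 9.20 against 0.693 to 1.44 CPM (share 0.66). Sh3gl3, the endophilin, had 2.67 CPM in CTL 10.28 against 5.19 to 7.47 CPM (share 0.635). Cacna2d2, the calcium channel subunit, had 1.97 CPM in CTL 5.13 against 2.58 to 2.98 CPM (share 0.648), and Lcn4, a lipocalin, had 4.41 CPM in CTL 5.6 against 1.69 to 2.45 CPM (share 0.629).

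Among summed lists, CTL 10.28 was high for immediate early genes and AP-1 factors, at 4393 CPM against 2071 to 2363 CPM (share 0.824), and low for T follicular helper genes, at 892 CPM against 1207 to 1388 CPM (share 0.683). CTL 4.24 was low for the BCL2 family, at 992 CPM against 1128 to 1161 CPM (share 0.819), and for p53 targets, at 2424 CPM against 2607 to 2719 CPM (share 0.634). CTL 5.13 was high for Th1 genes, at 1310 CPM against 981 to 1068 CPM (share 0.708), and CTL 5.6 for splicing and RNA-binding proteins, at 17914 CPM against 16428 to 16870 CPM (share 0.693). CKO 4.24 was low for the type I interferon response, at 2157 CPM against 2524 to 2751 CPM (share 0.645).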

How the results depend on the processing

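All 630 genes called kept their sign under each alternative, although each refits libraries that gave the calls. Of 114 named genes, 4 that were not called (Hnrnpk, Myg1, Lyz2 and Gata3) changed sign with the replicate block. The number called moved. It was 1306 with DESeq2 (635 higher, 671 lower), 1170 with the replicate block (429 and 741), 203 with sex as labelled as a covariate (81 and 122), 290 with all 20 libraries in the fit (149 and 141) and 25 against a null fold of 1.5 (13 and 12). With the Ddx3y level as a covariate it was 728 (332 and 396). Without CKO 4.24 and CKO 5.6 it was 1126, 617 of them higher, and with no filter 178 were lower. In alternatives chosen after seeing the data it was 325 with the 5 shared numbers alone (131 and 194) and 290 without CTL 5.6 and CTL 10.28 (120 and 170). Leaving out each library in turn gave 350 (without CKO 4.29) to 818 calls, 159 to 441 higher and 191 to 377 lower. It was 415 without CTL 4.24, 392 without CTL 9.20 (175 and 217), and 181 were higher without CTL 10.28. The fold threshold is stricter by construction, and for the others the cause was not tested. The log2 difference of Pcbp2 was −4.34 over the 5 pairs (exact p = 0.0625, the smallest possible) and −4.39 in the replicate block fit (edgeR adjusted p = 2.46e-05). The difference between 6 h and 0 h effects was called for 0 to 1 genes when each library was left out, 1 without CTL 5.13 or CKO 11.18 at 6 h. Of the named genes the block ended 13 calls and added 4, each given beside its gene, and it changed no other named call. The labelled sex as a covariate ended 34 named calls and added 1, while the Ddx3y level as a covariate ended 2 and added 3. Depth bears most on genes near the limit of 1 CPM, and genes below it were not tested.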

Other observations

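Among the 1042 genes with a mean level over 200 CPM, 32 were called (3.07%), 8 higher in CKO and 24 lower. These genes were chosen after their values were seen, and their changes were under 2-fold. Falls included Kmt2d, Usp34, Mdn1 and Macf1, which encode very large proteins. Protein size was not compared between called and other genes. Kmt2d, a histone methyltransferase, fell from 1699 ± 237 to 1203 ± 127 CPM (SD, n = 6 each; edgeR adjusted p = 0.0136). Usp34, a deubiquitinase, fell from 282 ± 39.4 to 183 ± 25.9 CPM (edgeR adjusted p = 0.00548), and Mdn1, an ATPase of ribosome assembly, from 410 ± 47.8 to 302 ± 31.7 CPM (edgeR adjusted p = 0.0122). In all 3 the ranges did not overlap. Macf1, a linker of microtubules and actin, was at 2698 ± 380 CPM in CTL and 2040 ± 241 CPM in CKO, with ranges that overlapped (edgeR adjusted p = 0.0475).

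Among genes of RNA and protein synthesis, Eif4g2, a translation initiation factor, fell from 881 ± 83.2 to 647 ± 47.6 CPM (SD, n = 6 each; edgeR adjusted p = 0.00498), and Ddx17, an RNA helicase, from 692 ± 43.5 to 581 ± 32.7 CPM (edgeR adjusted p = 0.0332). B4galnt1, an enzyme of ganglioside synthesis, fell from 623 ± 37.9 to 463 ± 30.9 CPM (edgeR adjusted p = 0.00167). Rises included Ass1, an enzyme of arginine synthesis, from 163 ± 26.1 to 238 ± 37.2 CPM (edgeR adjusted p = 0.0208). Hipk1, a nuclear kinase, rose from 338 ± 37.3 to 430 ± 37.1 CPM (edgeR adjusted p = 0.0317), and Xpo1, the main nuclear export receptor, from 216 ± 12.5 to 262 ± 19.4 CPM (edgeR adjusted p = 0.018). Groups did not overlap in any of these 6 genes.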
